A study of Mus musculus with 12 samples.

Results

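KRAB zinc finger genes carried m6A peaks in large number in the lung lists of both groups. Members were the peaks assigned to a gene whose name starts with Zfp and whose KEGG annotation holds the entry Herpes simplex virus 1 infection. That rule took 408 of the 27292 m6A peaks in the OVA list, on 154 of 14126 genes. It took 413 of the 26102 m6A peaks in the PBS list, on 152 of 13569 genes. Over both lists, 156 genes of 15341 were members. KRAB zinc finger proteins bind DNA through arrays of zinc fingers and recruit the corepressor Trim28 through the KRAB box. The complex brings histone methyltransferases and heterochromatin proteins to the bound site, and the family is known for silencing retroelements and protecting imprinted regions. N6-methyladenosine (m6A) is a methyl mark on RNA, usually found near stop codons and in 3' UTRs.

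The mice were female BALB/c animals of 6 to 8 weeks. Mice of the OVA group, a model of acute allergic asthma, had injections of ovalbumin in alum (days 0 and 7) and then breathed a 3% ovalbumin aerosol for 30 min a day from day 14 to day 20. Control mice received PBS. Whole lung RNA of 3 mice per group gave 3 IP libraries, enriched with an m6A antibody, and 3 input libraries without that step. Each group has 1 peak list with no values of single mice. No difference between the groups given below therefore has a replicate check, and no test between groups was made here. The lists hold no read counts, and the depth behind a single peak is unknown. Values for OVA and for PBS are those of the list of that group. All intervals below are 95% intervals. Those of shares are Wilson intervals and those of medians come from order statistics. They cover counting error only, and peaks of the same gene are not independent. In whole lung, a change in the mixture of cells and a change of RNA within cells cannot be told apart.

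The family name was read against the annotation in the lists. The description named KRAB for 0 of the 156 genes, and zinc finger, which the symbol already implies, for 155. Nucleic acid binding was annotated for 155 genes (99.4%), metal ion binding for 151 (96.8%) and regulation of transcription for 150 (96.2%). The same terms were annotated for 8.23%, 20.2% and 7.99% of all annotated genes with a peak. Which of the proteins have a KRAB box is not stated, and protein sequences were not analysed here. All 156 symbols matched a protein-coding gene of RefSeq on GRCm38.

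Many of these genes are close copies that lie side by side, which bears on the gene a peak is given to. For each peak, the lists give the gene used in calling and the gene assigned by the annotation. These differed for 53 of the 408 OVA peaks (13.0%, 10.1 to 16.6) and for 59 of the 413 PBS peaks (14.3%, 11.2 to 18.0). Over all peaks the shares were 22.5% and 22.8%, and over peaks of other Zfp genes 8.14% (5.94 to 11.1) and 9.40% (7.01 to 12.5). Another Zfp gene was the gene called for 39 of those OVA peaks and 45 of those PBS peaks. Peaks assigned to Zfp112, for example, were partly called on its neighbour Zfp180, and peaks assigned to Zfp212 partly on Zfp282. Those Zfp212 peaks, between 47905102 and 47907228 on chromosome 6, lay inside the RefSeq span of Zfp282 (47877209 to 47908485). The span of Zfp212 starts at 47920568, so position places these peaks on the gene called. Of member peaks with the same gene called and assigned, 99.2% for OVA and 98.9% for PBS lay inside the span of that gene. In the opposite direction, 25 OVA peaks and 29 PBS peaks were called on a member gene and assigned to a gene outside the rule. Where reads match several copies equally well, the gene remains uncertain. How such reads were counted is not given in the sources used here.

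Most peaks of KRAB zinc finger genes were annotated to the last exon or the 3' UTR. In the OVA list, 241 of 408 (59.1%, 54.2 to 63.7) were annotated to a 3' UTR, beside 52.7% of all peaks. A further 131 (32.1%, 27.8 to 36.8) lay in the last exon of a transcript, beside 15.9% of all peaks. Together, 372 peaks (91.2%, 88.0 to 93.6) were in the last exon or the 3' UTR, beside 68.5% (68.0 to 69.1) of all peaks. In the PBS list the share was 374 of 413 (90.6%, 87.4 to 93.0), beside 68.6%. In KRAB zinc finger genes the last exon usually encodes the whole finger array and continues into the 3' UTR. Exon lengths and distances to the transcript end were not measured, so these shares do not account for the length of the last exon.

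The 5' UTR and the exons before the last held few of their peaks. A 5' UTR was annotated for 14 OVA peaks (3.43%, 2.05 to 5.68) and 15 PBS peaks (3.63%, 2.21 to 5.91), beside 11.6% and 11.4% of all peaks. Exons other than the last held 22 OVA peaks (5.39%) and 24 PBS peaks (5.81%), beside 19.9% and 20%. Zfp-named genes without the KEGG entry were placed otherwise. Their 442 OVA peaks were 45.7% (41.1 to 50.4) in 3' UTRs and 15.8% (12.7 to 19.5) in 5' UTRs, and 65.8% (61.3 to 70.1) were in the last exon or 3' UTR. The 290 OVA peaks of genes with the entry and another name had 69.3% (63.8 to 74.3) there. These differences between gene sets were described and not tested.

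**Figure D1:**
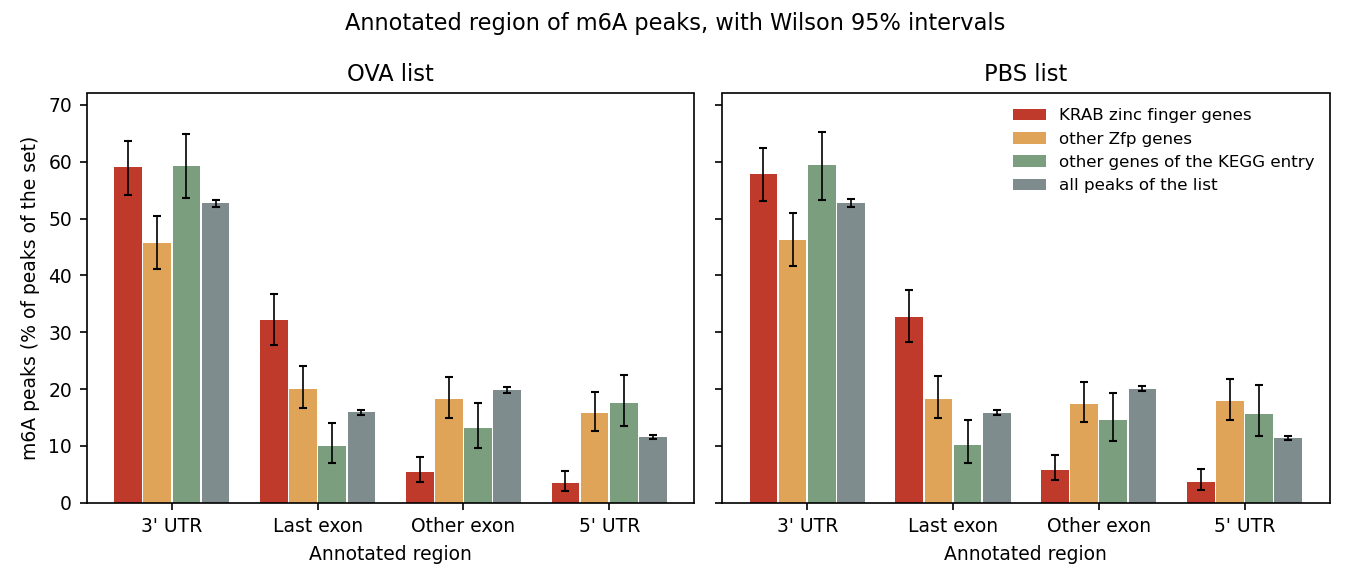
Share of m6A peaks (y axis, percent of the peaks of each set) by annotated region (x axis) in the OVA list and the PBS list, for KRAB zinc finger genes, other Zfp genes, other genes of the KEGG entry and all peaks. Bars are shares and whiskers are Wilson 95% intervals. The last exon held 32.1% of the KRAB zinc finger peaks of the OVA list and 15.9% of all its peaks, and the 5' UTR held 3.43% and 11.6%.

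Most transcripts given for these peaks were protein-coding, with 275 of the OVA peaks (67.4%, 62.7 to 71.8) and 276 of the PBS peaks (66.8%, 62.2 to 71.2). Over all peaks, 41.8% and 42.5% were. Retained-intron transcripts took 65 OVA and 71 PBS peaks, and processed transcripts took 59 and 54. On protein-coding transcripts alone, the share in the last exon or 3' UTR was 89.5% for OVA and 89.1% for PBS, beside 62.7% and 62.8% of all peaks on such transcripts.

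Peaks were several to a gene and wide. A member gene had 2.65 peaks on average for OVA and 2.72 for PBS, beside 1.93 and 1.92 over all genes with a peak. At least 4 peaks were found on 36 of 154 genes in the OVA list (23.4%, 17.4 to 30.7) and on 42 of 152 in the PBS list (27.6%, 21.1 to 35.2), beside 10.5% and 10.4% of all genes. Other Zfp genes were alike in this, with 2.80 and 2.74 peaks on average. The median exonic length of a member peak was 420 bp in both lists, with intervals of 361 to 452 bp for OVA and 362 to 481 bp for PBS. Over all peaks it was 330 bp and 328 bp. Peaks of other Zfp genes were nearly as long, with medians of 392 bp (361 to 452) and 391 bp (361 to 423). The longest member peak covered 2792 bp for OVA and 2823 bp for PBS. Since a peak can overlap another that was called on a different gene, overlapping member peaks were also counted as 1, which left 392 for OVA and 401 for PBS.

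Fold enrichment, the ratio of IP to input signal in a peak, was high among these genes. Its median was 9.24 (7.85 to 10.9) in the OVA list, where the median of all peaks was 5.59. In the PBS list it was 8.62 (7.5 to 10.1), beside 5.44. The middle member peak ranked at percentile 67.5 (61.8 to 73.4) of the OVA list and 66.2 (61.5 to 72.3) of the PBS list. Other Zfp genes had medians of 6.88 and 7.38. Single members ranged from 1.68 to 91.9 for OVA and from 1.55 to 106 for PBS. An enrichment of at least 2 was found for 98.3% of OVA members and 97.1% of PBS members, beside 89.9% and 89.4% of all peaks.

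The p values did not stand out in the same way. The median log10 p of members was -19.9 (-28.9 to -14.2) for OVA and -21.9 (-28.3 to -14.9) for PBS. All peaks had medians of -24.0 and -21.4. An FDR under 0.05 was listed for 401 of 408 OVA members (98.3%) and 405 of 413 PBS members (98.1%). The background was 98.1% of all OVA peaks and 97.8% of all PBS peaks, so member peaks passed this threshold about as often as other peaks.

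The median enrichment of member peaks was highest in 3' UTRs in both lists, and differences between regions were not tested. The median for member peaks in 3' UTRs was 11.2 (8.69 to 13.0) for OVA and 10.9 (9.16 to 12.6) for PBS, beside 6.05 and 5.85 for all 3' UTR peaks. For exonic member peaks it was 7.67 (6.34 to 10.3) and 7.08 (5.78 to 8.11), beside 5.13 and 4.99. The 14 member peaks in 5' UTRs of the OVA list had a median of 5.54 (3.76 to 11.3), beside 5.31 for all such peaks. The 15 of the PBS list had 6.91 (3.26 to 10.9), beside 5.43. Within genes that had both kinds, the highest 3' UTR peak was above the highest exonic peak in 43 of 69 genes of the OVA list (62.3%) and 55 of 79 of the PBS list (69.6%). Over all genes the shares were 62.1% and 62.6%. The strongest peak of a member gene was in the last exon or 3' UTR for 144 of 154 genes in the OVA list (93.5%) and 143 of 152 in the PBS list (94.1%), beside 73.3% and 73.6% of all genes.

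The members were crowded on few chromosomes. Chromosome 7 alone held 133 of the OVA member peaks (32.6%) and 143 of the PBS member peaks (34.6%), on 47 genes, beside 7.71% and 7.62% of all peaks. Chromosome 17 held 55 (13.5%) and 60 (14.5%) peaks on 26 genes, and chromosome 13 held 62 (15.2%) and 57 (13.8%) on 20 genes. Chromosomes 1, 14 and 18 held none, although between 3.28% and 6.89% of all OVA peaks lay on each.

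**Figure D2:**
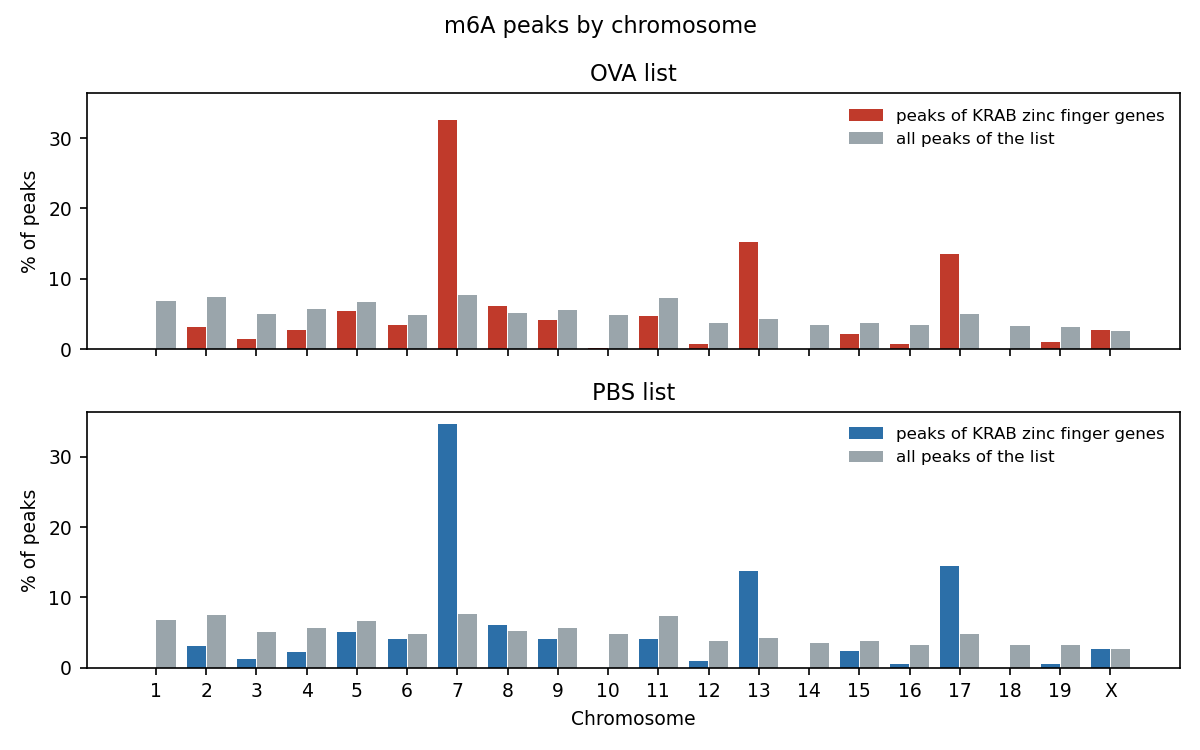
Share of m6A peaks (y axis, percent) on each chromosome (x axis), for KRAB zinc finger genes (coloured bars) and for all peaks (grey bars) of the OVA list above and the PBS list below. Chromosome 7 held 32.6% of the KRAB zinc finger peaks of the OVA list and 34.6% of those of the PBS list, beside 7.71% and 7.62% of all peaks.

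When neighbours whose first peaks were within 1 Mb were joined, 90 of the 156 genes fell into 11 clusters of at least 5 genes. Of these clusters, 6 were on chromosome 7. The largest, on chromosome 13 from 67069517 to 67814009, held 16 genes with 53 OVA peaks and 48 PBS peaks. Their peaks had a median enrichment of 10.8 for OVA and 10.6 for PBS. Genes called and assigned differed for 13 and 12 of those peaks. The strongest genes there were Zfp65 and Zfp953. Zfp65 had 3 peaks in each list, all in the 3' UTR, with enrichments of 78.0, 12.1 and 16.2 for OVA and 27.1, 15.3 and 6.58 for PBS. The peaks assigned to Zfp953, with up to 31.3 and 33.6, were called on Zfp456. They lay outside the RefSeq span of Zfp953, which ends at 67360572.

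The cluster medians were spread within each list. In the OVA list, the medians ran from 7.39 for the chromosome 7 cluster with Zfp607a and Zfp850 to 12.3 for the chromosome 7 cluster with Zfp689 and Zfp747. The latter cluster was lowest in the PBS list, at 5.10 over 13 peaks. The highest PBS median, 15.1 over 20 peaks, was that of the chromosome 17 cluster with Zfp101 and Zfp563, whose OVA median was 7.70 over 21 peaks. With 8 to 53 peaks in a cluster and no replicates, whether such medians differ between clusters or between groups was not tested.

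A cluster on chromosome 7, from 29784177 to 30134950 on GRCm38, held the member peak with the highest fold enrichment of both lists. Its 11 genes carried 38 OVA peaks and 43 PBS peaks. The top peak lay in the 3' UTR of Zfp420, from 29875374 to 29876244 for OVA and from 29875404 to 29876274 for PBS. Its enrichment was 91.9 in the OVA list, with a log10 FDR of -44.4, and 106 in the PBS list, with -52.1. The neighbour Zfp27 had its strongest OVA peak in the 3' UTR, at 25.2. Its strongest PBS peak was in exons, at 52.8, from 29895818 to 29898773. The overlapping OVA peak had 19.9. Zfp568, which represses an embryonic transcript of Igf2, had 5 peaks in each list, none above 10.2.

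**Figure D3:**
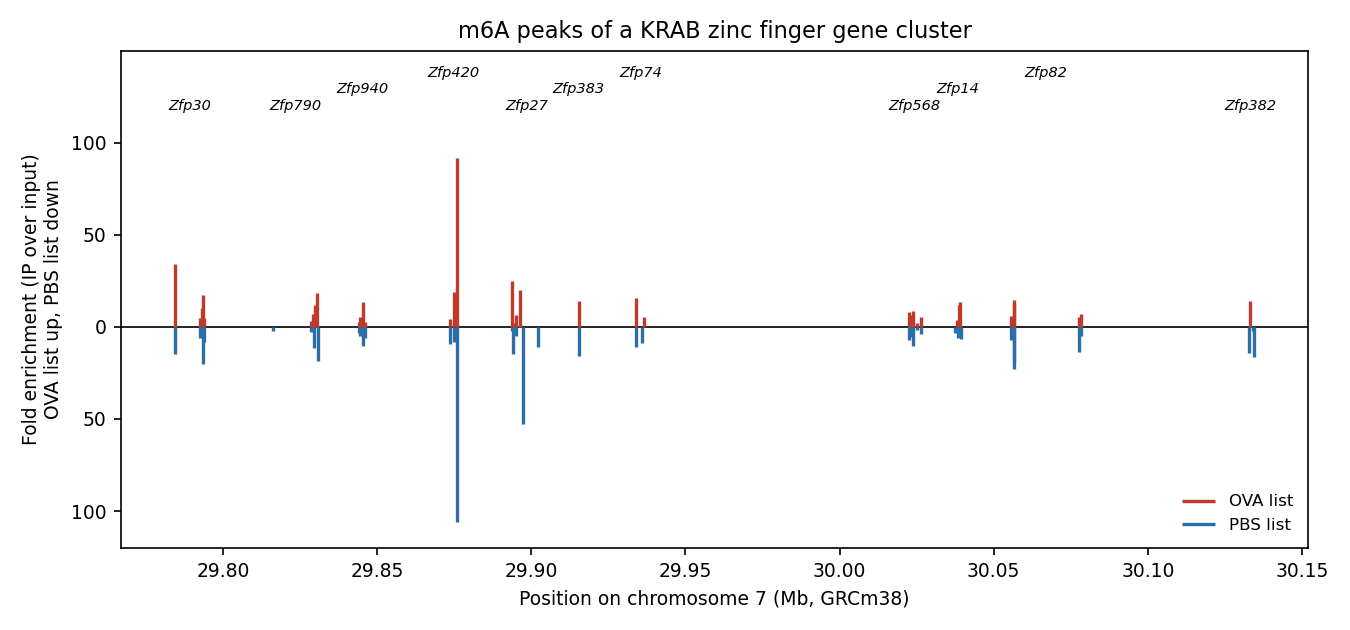
Fold enrichment (y axis, IP over input) of each m6A peak by position on chromosome 7 (x axis, Mb, GRCm38) in a cluster of 11 KRAB zinc finger genes. Lines rising from 0 are OVA peaks and lines falling from 0 are PBS peaks, each at the middle of the peak. The peak in the Zfp420 3' UTR reached 91.9 for OVA and 106 for PBS.

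The highest enrichments in the OVA list after Zfp420 were those of Zfp37 (90.4), Zfp65 (78.0), Zfp141 (72.9) and Zfp354c (71.9), each in a 3' UTR. Their overlapping PBS peaks had 29.2, 27.1, 13.3 and 18.3. In the PBS list, Zfp420 and Zfp27 were followed by Zfp719 (42.9), Zfp709 (41.7) and Zfp184 (38.0). Their overlapping OVA peaks had 13.0, 39.5 and 26.7. The Zfp719 peak (43574385 to 43575282 on chromosome 7 in the PBS list) was called on Zfp658. It lay before the RefSeq start of Zfp719 (43579559), so it belongs to Zfp719 by assignment only. All of these peaks were present in both lists, and the order at the top differed between the lists.

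By assignment, the genes with the most peaks were led by Zfp607a and Zfp850, neighbours on chromosome 7, with 13 peaks each over both lists. Zfp607a had 6 OVA and 7 PBS peaks, of which those between 27853419 and 27856438 (3 OVA and 5 PBS peaks) were called on Zfp59. They lay before the RefSeq start of Zfp607a (27860494), so its rank rests mostly on peaks outside the gene. The peaks called on Zfp607a itself included a 1736 bp stretch of its 3' UTR, with an enrichment of 19.5 for OVA and 18.6 for PBS. Zfp850 had 7 OVA and 6 PBS peaks, all called on Zfp850, with at most 18.2 and 18.3. They were followed by Zfp874b with 12 peaks, then by Zfp729b, Zfp235 and Zfp267 with 11 each. Among the many genes tied at 10, Zfp141, Zfp354c, Zfp27 and Zfp719 had the highest enrichment. Of the 5 Zfp719 peaks in each list, 4 OVA and 3 PBS peaks were called on another gene, the strongest PBS peak among them. Zfp267 had peaks along its exons and 3' UTR in both lists, with at most 13.9 for OVA and 15.8 for PBS. Of the 5 Zfp354c peaks in each list, 3 were called on Zfp879.

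The number of peaks could differ where the covered length hardly did. Zfp229 was assigned 3 peaks for OVA and 7 for PBS, but they covered 4695 and 5061 exonic bp. Of these peaks, 2 for OVA and 5 for PBS were called on another gene, so these values mostly describe another gene. A 2062 bp OVA peak there, from 21721047 to 21724024 on chromosome 17, overlapped separate PBS peaks of 749 and 1285 bp, all called on Zfp760. That stretch lies before the RefSeq start of Zfp229 (21730955). Zfp457 had 7 OVA peaks and 3 PBS peaks, the other gene with the largest difference (4 peaks), and was named after its values were seen. Several of its peaks overlapped each other. With each base counted 1 time, they covered 766 exonic bp in the OVA list and 392 bp in the other, and 4 of the OVA peaks had no PBS overlap.

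Few member peaks were found in a single list. Without an overlapping PBS peak were 36 of 408 OVA member peaks (8.82%, 6.44 to 12), beside 19.4% of all OVA peaks. Without an overlapping OVA peak were 48 of 413 PBS member peaks (11.6%, 8.88 to 15.1), beside 14.5% of all PBS peaks. The OVA interval lay below the share of all OVA peaks, and the PBS interval included the share of all PBS peaks. Other Zfp genes had 12% (9.29 to 15.4) and 8.72% (6.42 to 11.7). Overlap meant at least 1 shared base of exonic sequence. When at least 50% of both peaks had to overlap, the shares were 30.6% and 31.2%, and over all peaks 31.4% and 28.3%. With that stricter overlap, the share of OVA members was close to that of all OVA peaks.

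Member peaks of a single list were short and weak. Their median exonic length was 152 bp (93 to 182) for OVA and 122 bp (91 to 151) for PBS. Shared member peaks had 452 bp and 510 bp. The median enrichment was 4.22 (2.79 to 6.67) against 10.4 for shared OVA member peaks, and 3.27 (2.76 to 5.43) against 9.38 for shared PBS member peaks. The same held over all peaks, with 2.87 against 6.50 for OVA and 3.45 against 5.87 for PBS.

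Among OVA member peaks without a PBS overlap, the lowest p values were those of Zfp719, Zfp426, Zfp442, Zfp52 and Zfp57. The Zfp719 peak (43573847 to 43574207 on chromosome 7, last exon) had an enrichment of 8.56 and a log10 FDR of -13.3. It was called on Zfp658 and lay before the RefSeq start of Zfp719 (43579559). The Zfp426 peak, with 2.28, was called on Zfp266. The Zfp442 peak (150408601 to 150408780 on chromosome 2, last exon) had 15.1 and a log10 FDR of -11.1. The Zfp52 peak was in a 5' UTR, with 5.44. Zfp57, which guards DNA methylation at imprinted regions, had a 5' UTR peak (37002511 to 37003070 on chromosome 17) with 3.76 and a log10 FDR of -6.63. A second Zfp57 peak, in the last exon, was in both lists, with 3.59 for OVA and 3.49 for PBS.

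Among PBS member peaks without an OVA overlap, the lowest p values were those of Zfp667, Zfp780b, Zfp398, Zfp947 and Zfp689. The Zfp667 peak (6307194 to 6307464 on chromosome 7, 3' UTR) had an enrichment of 4.47 and a log10 FDR of -9.53. The Zfp780b and Zfp398 peaks had 3.22 and 2.82. The Zfp947 peak, in the last exon, had 20.2 with a log10 FDR of -5.25. Zfp689 had single-list peaks in each group, at 127442255 to 127442495 in the OVA list with 22.6, and at 127444917 to 127445068 in the PBS list with 8.22.

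By gene, the lists were nearly the same. Of the 156 members, 150 had a peak in both lists, 4 (2.56%, 1 to 6.41) in the OVA list only and 2 (1.28%, 0.352 to 4.55) in the PBS list only. Of all 15341 genes with a peak, 11.6% were in the OVA list only and 7.92% in the PBS list only. A high share of genes with peaks in each group was not particular to members. Of 162 other Zfp genes with a peak, 158 carried OVA peaks and 159 carried PBS peaks. For the 156 members these numbers were 154 and 152. Member genes had more peaks on average than all genes with a peak, and other Zfp genes had about as many as members. Whether the number of peaks bears on the share of genes in both lists was not tested. The OVA-only genes were Zfp819, Zfp872, Zfp938 and Zfp984, and the PBS-only genes were Zfp273 and Zfp398. Zfp872, Zfp938 and Zfp984 were named after their values were seen. Their peaks had enrichments from 2.12 to 14.4 in the OVA list, the highest that of Zfp819, and 6.91 (Zfp273) and 2.82 (Zfp398) in the PBS list. Peaks called on Zfp273 and assigned elsewhere were present in both lists, 2 in the OVA list. A peak called on Zfp398 and assigned to Zfp282 was also in both lists, with 9.88 and 6.68. Of the 150 shared genes, 77 (51.3%, 43.4 to 59.2) had equal numbers of peaks, beside 63.8% of all 12354 genes in both lists. More OVA peaks were found on 34 (22.7%, beside 19.7%) and more PBS peaks on 39 (26%, beside 16.5%). On 97 (64.7%, 56.7 to 71.9), every peak had an overlap in the other list, beside 67.1% of all genes in both lists.

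To set levels side by side, each OVA peak was paired with the PBS peak that shared most exonic bases with it, where the choice was mutual. This gave 324 pairs on 148 member genes. Since each list was made separately, a ratio between them also holds any difference in how the lists were scaled. The median ratio of OVA to PBS enrichment was 1.08 (1.03 to 1.14) over member pairs and 1.1 (1.09 to 1.1) over all 20491 pairs, so the middle member pair lay where the middle pair of all genes did. Most member pairs, 258, differed by less than 2 times.

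Wide differences occurred in both directions. The OVA enrichment was at least 2 times higher in 40 member pairs (12.3%, 9.20 to 16.4), beside 7.77% of all pairs. The PBS enrichment was at least 2 times higher in 26 (8.02%, 5.53 to 11.5), beside 4.91%. The higher-in-OVA pairs lay on 34 genes and the higher-in-PBS pairs on 26, and 6 genes (Zfp141, Zfp420, Zfp667, Zfp677, Zfp689 and Zfp940) had pairs in each direction, named after their values were seen. On Zfp141, the enrichment at 42473594 to 42473953 on chromosome 7 was 72.9 for OVA and 13.3 for PBS. A 3' UTR peak close by (42474699 to 42475178) had 6.16 for OVA and 24.7 for PBS. The pairs furthest apart were picked by their values. In the OVA direction they were Zfp457 (20 and 3.19) and a Zfp956 peak called on Zfp783 (43.6 and 7.30). In the PBS direction they were Zfp780b (3.85 and 33.1) and Zfp850 (2.16 and 18.3). When at least 50% of both peaks had to overlap, 273 member pairs remained, with 29 (10.6%) and 15 (5.49%) at least 2 times apart, beside 6.44% and 4.15% of all pairs. With that overlap, Zfp420 and Zfp667 kept pairs in each direction, and Zfp141, Zfp677, Zfp689 and Zfp940 did not. The Zfp141 pair higher in PBS and the Zfp780b pair (3.85 and 33.1) did not remain, as their peaks cover unlike stretches.

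**Figure D4:**
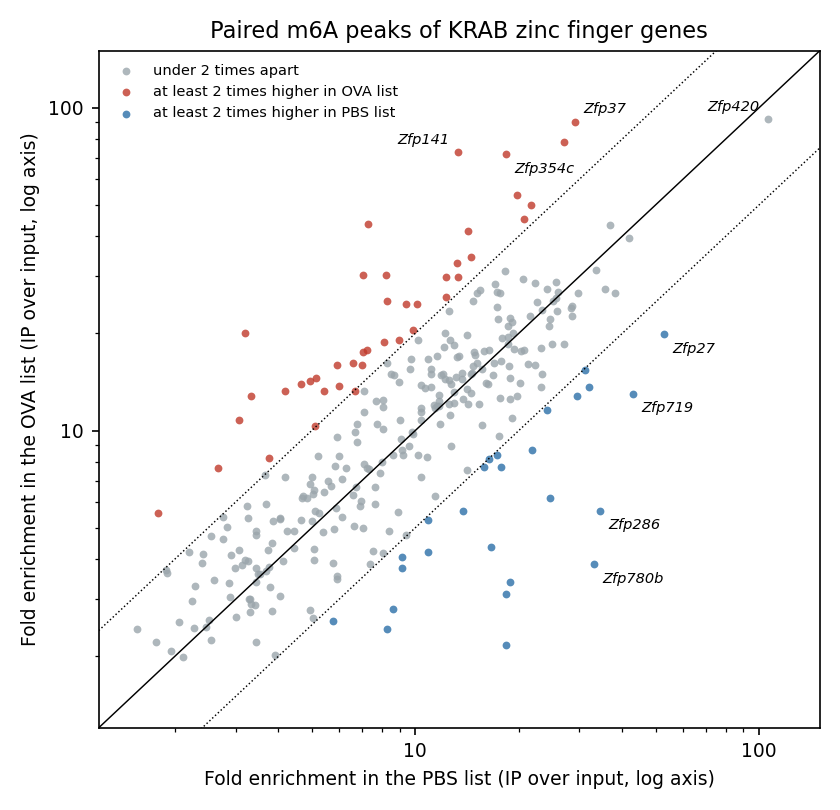
Fold enrichment of the 324 paired m6A peaks of KRAB zinc finger genes in the PBS list (x axis, log scale) and the OVA list (y axis, log scale), each point 1 pair. The solid line marks equal values and the dotted lines a ratio of 2. Pairs at least 2 times higher in the OVA list (40, red) and in the PBS list (26, blue) lie on both sides of the 258 others.

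Genes of the family with a described role were taken as a fixed list of 18. Of these, 14 had peaks in both lists, counting Zfp932, which is not a member under the rule. Zfp30, a regulator of neutrophil-attracting chemokine in mouse airways, had 5 peaks in each list. Its 5' UTR peak (29784177 to 29784806 on chromosome 7) had an enrichment of 34.4 for OVA and 14.5 for PBS, with log10 FDR values of -9.71 and -10.6. Its strongest p value belonged to a 3' UTR peak from 29793264, with 17.6 and 20.3. Zfp354a, first described in kidney, had 3 OVA and 4 PBS peaks, and the strongest had 25.7 in both lists.

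Others on that list had strong peaks in the last exon or 3' UTR. Zfp97 had 49.8 for OVA and 21.7 for PBS, in a last-exon peak from 17144713 to 17145728 on chromosome 17 in the OVA list. Zfp90 had 45.2 and 20.7 in a 3' UTR peak, and Zfp961 had 33.0 and 13.2. Zfp458 had a 3' UTR peak of 2184 bp with 24.3 and of 2214 bp with 28.6. Zfp386 had 15.0 and 14.5, and Zfp113 had 12 and 11.3. The Zfp708 peaks overlapped each other in each list and were called on 3 genes, Zfp708, Rslcan18 and Gm28557, with at most 5.69 and 10.9. Zfp932, which silences endogenous retroviruses, had 2 peaks in each list but not the KEGG entry. Zfp809, which silences retroviral DNA in embryonic cells, was called with 1 peak in each list that was assigned to another gene. Zfp92 had no listed peak.

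The silencing partners of the family were read from a fixed list of 25 symbols, among them Fam208a, an older symbol of Tasor. Peaks were assigned to 19 in both lists, with 58 OVA peaks and 48 PBS peaks over the list. Trim28, the corepressor that the KRAB box binds, had no listed peak, nor had the DNA methyltransferase gene Dnmt3b. The histone methyltransferase Setdb1 had 1 exonic peak in each list, with 6.06 for OVA and 5.82 for PBS, and its cofactor Atf7ip had a 3' UTR peak with 9.04 and 11.4. The HUSH complex genes Tasor and Mphosph8, and Morc2a, the ATPase that works with HUSH, had peaks in both lists. For Tasor the top enrichments were 21.5 and 18.2, in a peak called on Arhgef3, for Morc2a 19.2 and 17.1 and for Mphosph8 5.45 and 5.33. Daxx and Atrx, which deposit a histone variant in heterochromatin, had at most 16.8 and 14.7 and at most 5.50 and 5.88. Morc3 had a single 3' UTR peak, with 41.2 for OVA and 11.5 for PBS. Chd4, Uhrf1 and Pphln1, which is also part of HUSH, had assigned peaks in the OVA list only, although 4 PBS peaks were called on Chd4 and assigned elsewhere. Among the symbols with an assigned peak, 3 were in the OVA list only and 19 in both lists. Of all genes with a peak, 11.6% were in the OVA list only, so this is near the background.

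Lung identity could be read only from which genes carried peaks. Of 22 marker genes, 13 had peaks in both lists, among them Sftpb, Sftpa1, Sftpd, Scgb1a1, Ager, Foxj1 and Cldn5. Sftpc had none, which gives no information on its expression, as an unmethylated transcript has no peak. Of the markers of cells that enter the allergic lung, Ccr3 had 1 peak in each list. The OVA peak, in the 3' UTR, had 13.0 with a log10 FDR of -252. The PBS peak, in an exon, had 6.17 with a log10 FDR of -1.87. Siglecf, Epx and Prg2, the other eosinophil markers, had none. Cd3e, Ms4a1 and Mrc1 had peaks in both lists, and Cd4 in the OVA list only, although 1 PBS peak was called on it and assigned elsewhere. The part of cell composition in the values above was not tested.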

How the data were processed

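Lung RNA of 3 OVA and 3 PBS mice gave 12 libraries. The authors cleaned reads with FASTP, aligned them with HISAT2 to the Ensembl mouse genome, used exomePeak for peak calling and ChIPseeker for annotation. Tool versions, and how replicates were combined into the list of a group, are not given in the sources used here. The deposited fold enrichment is the authors' ratio of IP over input. The deposited score, also from the authors, is a p value or FDR as log10. Coordinates are counted from 1.

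Exonic blocks overlapping by at least 1 bp were called shared. Python 3.11.15, pandas 2.3.3, numpy 2.4.6, scipy 1.17.1 and matplotlib 3.10.9 were used, and the overlap code was tested on simulated data. Members and lists were chosen with earlier results of these data known. Named genes were the 10 with most peaks, the 5 per list with the highest enrichment at an FDR under 0.05, the 5 per list with the lowest p without an overlap, a fixed list by role, and the top 2 of each cluster. The pairing of peaks across lists was added after the data were seen. Protein and peak sequences were not analysed here.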

Additional observations from a re-analysis of the deposited data

How the results depend on the processing

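No paired analysis was possible because each group has 1 pooled list without values of single mice, and no result comes from a test. For the same reason no replicate could be left out. Counts of zinc fingers and KRAB boxes were planned and not run, as no protein sequences were used here. Of 62 alternatives over 16 results, 57 stayed within the interval of the main value, or within 1.5 times of a count. They include an FDR under 0.05, an enrichment of at least 2, protein-coding transcripts only and, for peaks, the same gene called and assigned. The alternatives for the share in the last exon or 3' UTR, for the pairs and for overlapping peaks counted as 1 were chosen after seeing the data. The other 5 concern overlap. With at least 50% of both peaks overlapping, the share of OVA member peaks without a PBS overlap was 30.6% and that of PBS member peaks 31.2%. Over all peaks these shares were 31.4% and 28.3%. With identical start and end it was 95.6% for both, beside 89.7% of all OVA peaks and 89.3% of all PBS peaks. A stricter definition of overlap gives a higher share by construction. The pairs at least 2 times higher in the PBS list numbered 15 with 50% overlap of both peaks, an alternative chosen after seeing the data that keeps fewer pairs. Depth limits single values, as the lists give no reads for a peak and an enrichment of a weakly covered peak is imprecise.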
